A study of Mus musculus with 6 samples.

Results

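The genes described here are 10 markers of microglia and of the start of the classical complement pathway: Cx3cr1, P2ry12, Tmem119, Aif1, Csf1r, Trem2, Tyrobp, C1qa, C1qb and C1qc. They were chosen by symbol, and all 10 were found among the 24346 gene symbols that each table of the series lists. The 6 libraries come from mouse retinas at postnatal day 12, which the design describes as 3 pairs of littermates without saying which libraries form a pair. In the 3 control libraries the genotype is Panky+/-;Panky-like+/-;Nrl-/-, so the controls carry 1 mutant allele of each targeted gene, and in the 3 triple-deficient libraries it is Panky-/-;Panky-like-/-;Nrl-/-. Both groups lack Nrl, the transcription factor of rod fate, so that their photoreceptors are cone-like, and no library here has intact Nrl. The tissue is whole retina, in which fewer microglia and less RNA per microglial cell cannot be told apart. The labels used here give neither strain nor sex.

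Microglia are the resident macrophages of the retina. They arise from yolk sac progenitors, depend on signalling through Csf1r, survey the tissue with motile processes, and at this age take part in synapse pruning and the clearance of dying cells. They are also the main local source of C1q, the recognition protein of the classical complement pathway, which is built from equal numbers of A, B and C chains and tags synapses and debris for uptake. Activated microglia usually lower the receptors of the resting state and raise phagocytic and lipid-handling genes through Trem2 and its adaptor Tyrobp.

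C1qa, C1qb and C1qc lie side by side on chromosome 4, from 136880126 to 136898844 of GRCm38, a span of 18.7 kb that holds these 3 genes alone. Promoter windows were in the RefSeq tables of that build for 6 of the 10 genes. The 250 bases before the start are shown for C1qb and C1qc, as neighbours that code for chains of 1 protein, and for Trem2, as the gene with the largest log2 change in size of the 10. Capitals mark GAGGAA, the core letters bound by PU.1 (the myeloid factor encoded by Spi1), or its reverse complement. The windows are chr4:136886201-136886450 (minus strand), chr4:136892915-136893164 (minus strand) and chr17:48346151-48346400 (plus strand). The C1qc window was taken from a start inside the C1qc gene span, which reaches 136892936, so the window overlaps that span.
C1qb: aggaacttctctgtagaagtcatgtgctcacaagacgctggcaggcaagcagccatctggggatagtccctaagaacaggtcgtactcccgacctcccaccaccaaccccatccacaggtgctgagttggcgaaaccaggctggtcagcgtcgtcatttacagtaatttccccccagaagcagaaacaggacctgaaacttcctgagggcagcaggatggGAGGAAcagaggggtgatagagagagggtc
C1qc: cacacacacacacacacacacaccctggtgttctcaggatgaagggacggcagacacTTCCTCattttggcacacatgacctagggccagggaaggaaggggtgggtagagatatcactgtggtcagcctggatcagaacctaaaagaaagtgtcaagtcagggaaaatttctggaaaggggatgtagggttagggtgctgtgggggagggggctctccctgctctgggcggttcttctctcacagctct
Trem2: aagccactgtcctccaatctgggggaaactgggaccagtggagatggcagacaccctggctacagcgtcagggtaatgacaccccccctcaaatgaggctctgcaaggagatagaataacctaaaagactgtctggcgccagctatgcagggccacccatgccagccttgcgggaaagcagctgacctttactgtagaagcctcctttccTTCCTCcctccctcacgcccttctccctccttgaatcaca

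GAGGAA was found on either strand in 4 of these 6 windows, those of C1qb, C1qc, Trem2 and Aif1, and in 23.25% of all 32851 windows of the same length. The match begins 30 bases before the start in C1qb, 193 in C1qc, 40 in Trem2 and 7 in Aif1. The longer form GAGGAAGT, which contains the core, was found in C1qc and in 2.44% of all windows. These matches describe letters in a window and were not tested as binding sites.

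Values are FPKM as the authors deposited them, and their sums ran from 385962 to 396697 per library. Depth was estimated from the steps of low values at 18.1 to 27.2 M fragments per library, with triple-deficient 3 the shallowest. Taking Panky as Ankrd33 and Panky-like as Ankrd33b, which the labels do not state, Ankrd33b fell from 32.6 to 35.4 FPKM in controls to 1.31 to 1.81 FPKM in triple-deficient libraries, and Ankrd33 from 104 to 110 FPKM to 50.5 to 59.6 FPKM, so both were lower in the libraries labelled as lacking them (limma adjusted p = 4.56e-07 and 0.00274). The Ankrd33 transcript remained readily seen there, and these values do not show whether it was functional. Nrl, labelled as lost in both groups, was still read at 38.3 to 49.2 FPKM in the controls and 51.3 to 53.7 FPKM in the triple-deficient libraries, and with no library of intact Nrl here its loss could not be checked. In triple-deficient 3, the deviation of a gene from its mean fell with the GC content of its transcript (Spearman -0.59 across genes), against 0.07 to 0.30 in the other libraries. The log2 change between genotypes also fell with GC content across genes (Spearman -0.36).

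All 10 genes were detected in all 6 libraries, and they spanned a range from the middle to the bottom of the 14325 genes tested. Genes averaging under 0.5 FPKM were not tested and are left out of this ranking, so its bottom is not that of the transcriptome. FPKM are per length, but other differences between genes, such as GC content, remain, so levels of different genes compare only roughly. Mean levels over the 6 libraries were 11.2 FPKM for C1qa, 11 for C1qb, 10.4 for C1qc, 6.87 for Tyrobp and 6.08 for Csf1r. Cx3cr1 followed at 3.55, Trem2 at 2.55, P2ry12 at 1.87, Aif1 at 1.69 and Tmem119 at 0.54 FPKM. C1qa stood above 48.8% of the genes tested, Csf1r above 32.8%, Cx3cr1 above 23% and Tmem119 above 0.7%. The 3 C1q genes did not separate from each other, C1qa being above C1qb in 4 of 6 libraries and C1qb above C1qc in 3 of 6. Tyrobp was above Csf1r in 6 of 6 libraries and Cx3cr1 above Trem2 in 6 of 6, although the ranges of both pairs overlapped. P2ry12 and Aif1 exchanged places, P2ry12 being the higher in 4 of 6. The ranges of C1qc and Tyrobp, of Csf1r and Cx3cr1, of Trem2 and P2ry12, and of Aif1 and Tmem119 did not overlap.

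**Figure D1:**
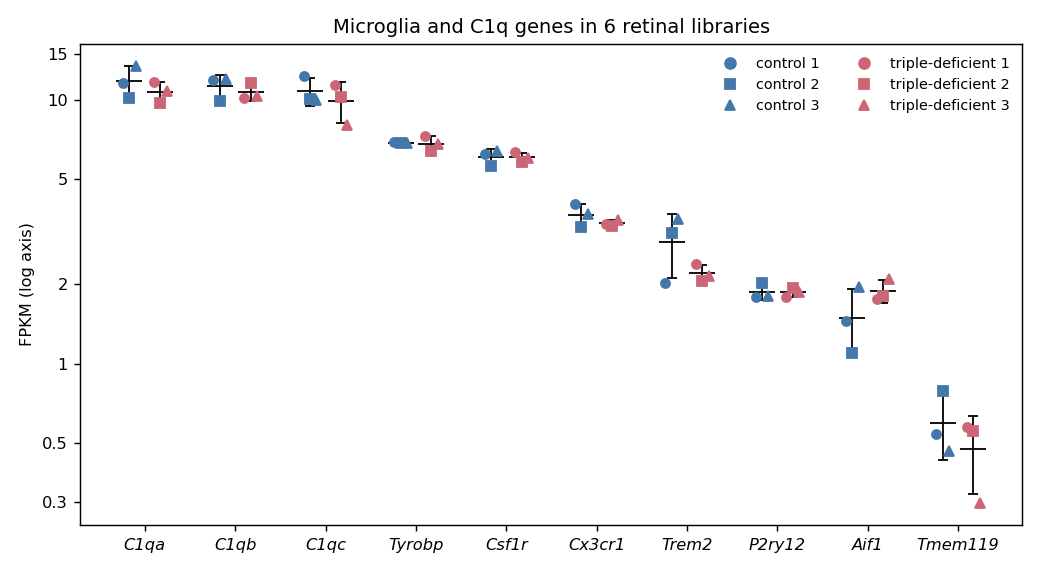
FPKM (log axis) of the 10 genes in each of the 6 libraries, ordered by mean level, with the mean and SD of each group (n = 3) as bars and libraries 1 to 3 as circles, squares and triangles. The control (blue) and triple-deficient (red) libraries overlap for every gene, and the 3 C1q genes sit at about 8 to 13.5 FPKM while Tmem119 sits below 0.8 FPKM.

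The comparison of genotypes asks whether losing both ankyrin repeat proteins moves microglial and C1q transcripts in a cone-rich retina at postnatal day 12. None of the 10 genes passed limma's threshold (adjusted p below 0.05, the 10 running from 0.946 to 0.999), where 4 of 14325 genes did, 0.0279% of those tested. None passed at an unadjusted p below 0.05 either (5.09% of all genes tested), and for 0 of the 10 were the groups free of overlap (10.5% of all genes tested, 4.86% higher and 5.64% lower in triple-deficient libraries). The median log2 change, given throughout for triple-deficient libraries relative to controls in log2(FPKM + 1), was -0.07 over the 10 genes and 0.003 over all genes tested. It was -0.03 without control 1, -0.10 without control 2, -0.02 without control 3, -0.07 without triple-deficient 1, -0.06 without triple-deficient 2 and -0.02 without triple-deficient 3. Of the 10 changes, 9 were below 0 (48.2% of all genes tested), but 3 of these, for P2ry12, Csf1r and Tyrobp, were at most 0.01 in size, and 7 of 10 were below 0 once the GC trend of each library was removed. A missed threshold does not show that levels were equal, so the 95% confidence interval of each change is given with it.

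The C1q genes were the most abundant of the set. C1qa, which codes for the A chain, was at 11.7, 10.2 and 13.5 FPKM in controls 1, 2 and 3 and at 11.7, 9.74 and 10.8 FPKM in triple-deficient 1, 2 and 3. Control 3 was the highest library and triple-deficient 2 the lowest, with the groups overlapping. The log2 change of C1qa was -0.12 (SE 0.102, 95% interval -0.35 to 0.12), and it was -0.21 without control 2 and -0.02 without control 3. C1qb, the B chain, was at 11.9, 9.93 and 12.0 FPKM in the controls, against 10.2, 11.6 and 10.4 FPKM in triple-deficient libraries, the lowest value being that of control 2. The change of C1qb was -0.07 on the log2 scale (SE 0.083, interval -0.26 to 0.13), and from -0.15 without control 2 to -0.02 without control 3. C1qc, the C chain, was at 12.4, 10.1 and 9.97 FPKM in the controls, against 11.4, 10.3 and 8.05 FPKM in triple-deficient libraries. Triple-deficient 3 was the low library for this chain, and without it the log2 change of C1qc went from -0.12 (SE 0.125, interval -0.40 to 0.17) to 0.01.

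The GC content of the 3 C1q transcripts was 57.4% to 59.5%. Triple-deficient 3, with its GC trend, was the lowest library for C1qc but not for C1qa or C1qb, whose log2 changes without it were -0.12 and -0.05. With each library's GC trend removed, the log2 changes of C1qa, C1qb and C1qc were -0.04, -0.02 and -0.07, and the part of the GC trend in the C1q values was not tested further. Summed over the chains, C1q stood at 35.9, 30.2 and 35.5 FPKM in the controls, against 33.3, 31.6 and 29.2 FPKM in triple-deficient libraries. The chains were in broadly similar amounts within each library. C1qa was 0.84 to 1.15 times C1qb, and C1qc was 0.78 to 1.13 times C1qb, with the lowest ratio of C1qc to C1qb in triple-deficient 3. C1qc was 0.74 to 1.06 times C1qa, at 0.74 in control 3 and 0.75 in triple-deficient 3. C1q made up 56.3% to 61.0% of the summed FPKM of the 10 genes, and the sum of the chains was 5.37 to 5.78 times Csf1r in controls and 4.87 to 5.41 times in triple-deficient libraries.

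**Figure D2:**
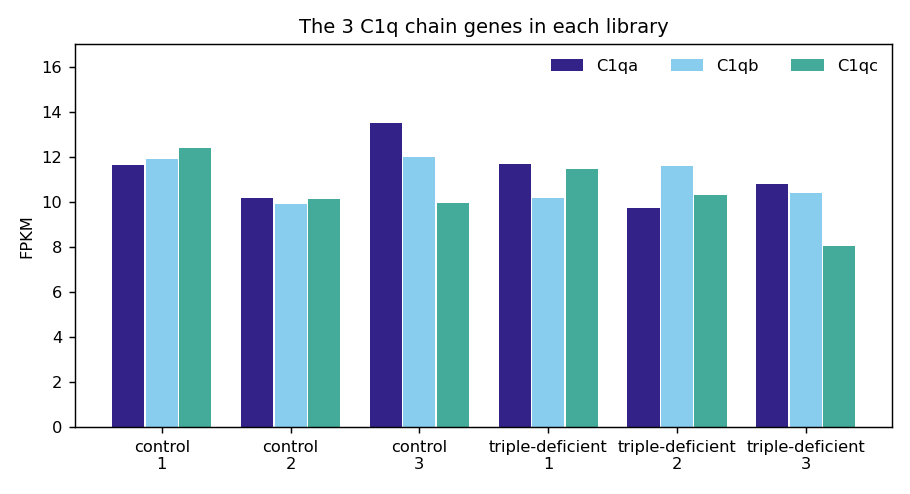
FPKM of C1qa, C1qb and C1qc (bars, linear axis from 0) in each of the 6 libraries. Within a library the 3 chains are broadly similar, with C1qc lowest beside C1qa in control 3 and triple-deficient 3. They stand between 9.93 and 13.5 FPKM in the controls, against between 8.05 and 11.7 FPKM in triple-deficient libraries, and C1qc in triple-deficient 3 is the lowest bar.

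Of the receptors, Csf1r, the tyrosine kinase that keeps microglia alive, lies on chromosome 18. Csf1r was at 6.22, 5.62 and 6.42 FPKM in the controls, against 6.35, 5.84 and 6.004 FPKM in triple-deficient libraries. The groups covered the same range, and control 2 was lowest. With an interval of -0.16 to 0.15 around a log2 change of -0.003 (SE 0.068), Csf1r had one of the narrowest bounds of the set. Cx3cr1, the receptor of the neuronal chemokine fractalkine (chromosome 9, 120048683 to 120068296), was at 4.04, 3.31 and 3.70 FPKM in the controls, against 3.40, 3.34 and 3.51 FPKM in triple-deficient libraries. The triple-deficient values lay inside the control range, and the log2 change was -0.08 (SE 0.078, interval -0.26 to 0.10), or -0.03 without control 1 and -0.14 without control 2. P2ry12, the ADP receptor that steers microglial processes and is lowered on activation (chromosome 3, 59216271 to 59262985), was at 1.79, 2.02 and 1.80 FPKM in the controls, against 1.79, 1.95 and 1.87 FPKM in triple-deficient libraries. No library stood apart for P2ry12, and its log2 change was -0.002 (SE 0.076, interval -0.18 to 0.17).

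Trem2 and Tyrobp form 1 signalling unit, Trem2 binding lipids and debris and Tyrobp carrying the signal through its tyrosine motif. Trem2 (chromosome 17, 48346401 to 48352276) was at 2.03, 3.15 and 3.53 FPKM in the controls, against 2.40, 2.06 and 2.16 FPKM in triple-deficient libraries. Controls 2 and 3 were above all triple-deficient libraries, while control 1 was the lowest of the 6. The mean of Trem2 was 24.0% lower in the triple-deficient group, with a log2 change of -0.26 (SE 0.143, interval -0.59 to 0.06, limma adjusted p = 0.946). That change was -0.15 without control 3, -0.44 without control 1 and -0.35 with a pseudocount of 0.1. Tyrobp (chromosome 7, 30413782 to 30417582) was at 6.93, 6.87 and 6.87 FPKM in the controls, against 7.32, 6.42 and 6.79 FPKM in triple-deficient libraries. The controls lay inside the triple-deficient range, and the log2 change of Tyrobp was -0.01 (SE 0.063, interval -0.16 to 0.14). Trem2 was at 29.3%, 45.8% and 51.4% of the Tyrobp level in controls and at 32.7%, 32.1% and 31.8% in triple-deficient libraries, so the controls differed among themselves by more than the triple-deficient libraries did.

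The other markers were the least abundant. Aif1, which codes for the calcium-binding protein Iba1 that is stained to see microglia (chromosome 17, 35170986 to 35176083), was at 1.45, 1.09 and 1.95 FPKM in the controls, against 1.755, 1.80 and 2.099 FPKM in triple-deficient libraries. Control 3 lay among the triple-deficient values and control 2 was the lowest. Aif1 was the 1 gene of the 10 with a change above 0, at 0.22 (SE 0.128, interval -0.07 to 0.51, limma adjusted p = 0.946), and its mean was 25.9% higher. Without control 2 the log2 change of Aif1 was 0.10, without control 3 it was 0.35, and with a pseudocount of 0.1 it was 0.34. Tmem119, a membrane protein that sets microglia apart from blood-derived macrophages (chromosome 5, 113793729 to 113800396), was at 0.542, 0.785 and 0.465 FPKM in the controls, against 0.576, 0.554 and 0.296 FPKM in triple-deficient libraries. Control 2 was the highest and triple-deficient 3 the lowest. Its mean of 0.536 FPKM was just above the filter of 0.5, and the log2 change of -0.12 (SE 0.12, interval -0.39 to 0.16) was -0.29 with a pseudocount of 0.1. It was -0.02 without triple-deficient 3, -0.03 without control 2 and -0.17 without control 3. The GC content of the Tmem119 transcript was 59.1%, and with each library's GC trend removed its log2 change was -0.04.

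**Figure D3:**
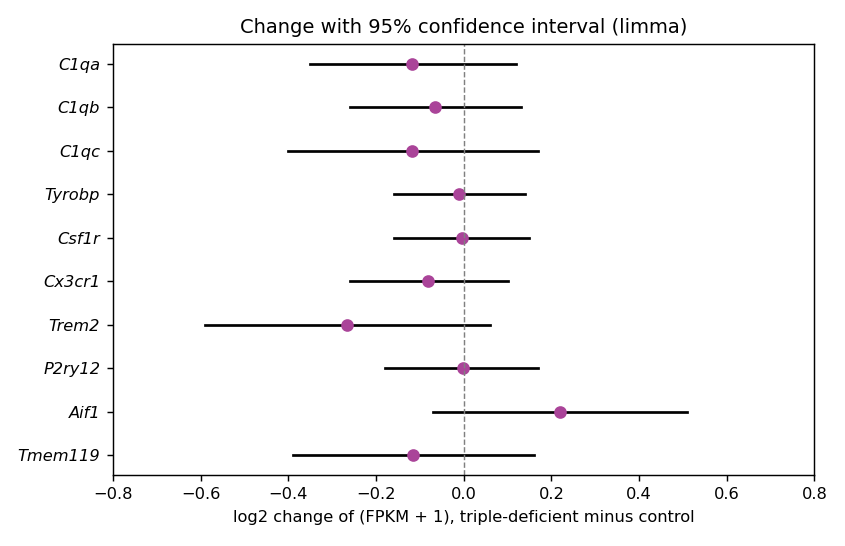
Log2 change of (FPKM + 1), triple-deficient minus control, for the 10 genes, with the 95% confidence interval from limma as a line. All 10 intervals include 0, the narrowest being those near Tyrobp and Csf1r and the widest that of Trem2, from -0.59 to 0.06. The scale understates the changes of low genes such as Tmem119, so widths of low and high genes are not directly comparable.

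The number of fragments behind each value was estimated. With the estimated depths and the length of each mRNA, Csf1r rested on about 421 to 668 fragments per library, the 3 C1q genes on 175 to 375 and Cx3cr1 on 238 to 347. Behind Tyrobp there were about 69 to 112, behind Trem2 42 to 89, behind Aif1 24 to 42 and behind Tmem119 12 to 44. Counting error alone would give a coefficient of variation (CV, SD over mean) of 4.4% for Csf1r, 6.2% for C1qa, 13% for Trem2, 17.6% for Aif1 and 20.4% for Tmem119. The spread within groups was 5.7% for Csf1r, 12.1% for C1qa, 22.1% for Trem2, 19.5% for Aif1 and 30.0% for Tmem119. It was below the counting estimate for 2 genes, P2ry12 and Tyrobp, and above it for 8, up to 2.46 times for C1qc. These numbers of fragments are estimates that cover counting error only.

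**Figure D4:**
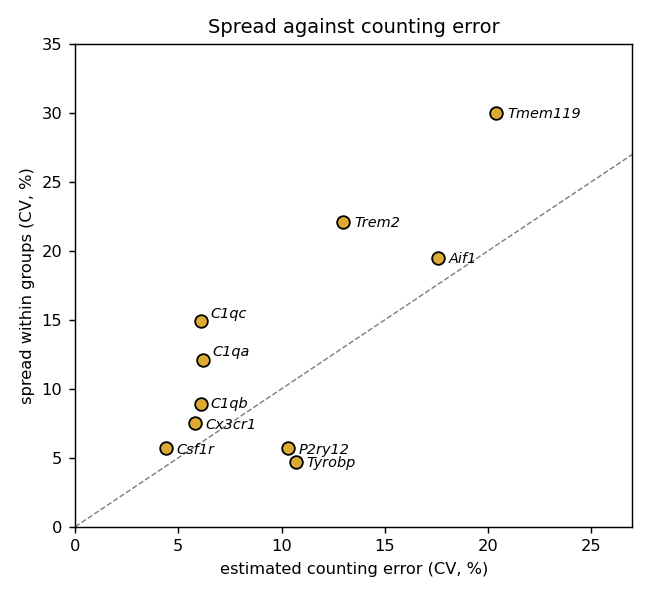
Spread within groups (CV in percent, pooled over 3 control and 3 triple-deficient libraries, y axis) against the counting error estimated from depth (CV in percent, x axis) for each of the 10 genes, with equality as a dashed line. Tmem119, Aif1 and Trem2 lie at the right with a counting error of 13% or more, and C1qc lies farthest above the line in proportion, at 14.9% against 6.1%.

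The 10 genes did not move as 1 block from library to library. Over the 45 pairs of genes, Pearson's r across the 6 libraries had a median of 0.14 and was above 0 for 26 pairs. All pairs rest on the same 6 libraries, which differ in depth and in GC trend, and such values are a description. C1qa and Csf1r varied most like each other among positive pairs (r = 0.88), while P2ry12 went against Csf1r (r = -0.97) within a range of only 1.79 to 2.02 FPKM. The mean of the z-scores of the 10 genes was 0.28, -0.22 and 0.52 in controls 1, 2 and 3 and 0.16, -0.31 and -0.44 in triple-deficient 1, 2 and 3. Of 13288 other genes with at least 1 FPKM, the 8 most like that profile over the 6 libraries were Galnt2, Nlgn3, Eci1, Erich5, Insm2, 2510002D24Rik, Cactin and Urgcp, with r from 0.981 to 0.996, and none of them is on the lists of microglial or complement genes. In all, 159 genes reached an r of 0.9. For 19 other microglial genes the median r with the profile was 0.08.

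Beyond the 10 genes, lists of other microglial and complement genes held 89 genes that passed the filter of 144 listed, and 0 of them passed limma's threshold (adjusted p 0.853 or more). Of the 89, 5 had an unadjusted p below 0.05 (5.09% of all genes tested), and in 13, 14.6%, the groups did not overlap (10.5% of all genes tested). Among the 13, 6 were higher in triple-deficient libraries, namely Fcer1g, Axl, Cd9, Csf1, Inpp5d and C8g. The other 7 were lower, among them Sall1, Apoe, Cd68, Ptpn6, Cfb and C1ql1. The median log2 change of the 89 genes was -0.02.

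Other microglial identity genes (26 tested of 32, median log2 change -0.055, 19 below 0) held 0 called genes. Sall1, a transcription factor of microglial identity, was at 0.97 ± 0.0257 FPKM in the controls, against 0.781 ± 0.056 FPKM in triple-deficient libraries (SD, n = 3). Gpr34, a lysophospholipid receptor, was at 1.41 ± 0.356 and 1.03 ± 0.0851 FPKM. Fcer1g, the Fc receptor gamma chain and an adaptor of the same kind as Tyrobp, was at 2.93 ± 0.65 and 3.49 ± 0.144 FPKM. The groups overlapped for Ctss and Rgs10, among the most abundant genes of the list. Ctss, a lysosomal protease, was at 14.4 ± 2.44 and 13.7 ± 0.678 FPKM, and Rgs10, a regulator of G protein signalling, at 7.16 ± 0.576 and 7.92 ± 1.09 FPKM.

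Genes of activated and phagocytic microglia were mostly near or under the filter, 13 of 27 being tested, with a median log2 change of 0.03 and 0 called. That median covers the tested genes only, whose mean levels ran from 0.616 to 549 FPKM, and genes under the filter have no part in it. What part other retinal cells have in these levels was not tested, so the median is not a measure of microglial activation. The inflammatory cytokine gene Tnf was listed at 0 in 5 libraries and at 0.029 FPKM in control 1. Il1b, another cytokine gene, was at 0 to 0.033 FPKM in the controls, against 0.06 to 0.115 FPKM in triple-deficient libraries, and the chemokine gene Ccl2 at 0 to 0.066 FPKM, against 0.072 to 0.112 FPKM. Both lay under the filter, where single fragments set the value, and neither was tested. Tnf, Il1b and Ccl2 were chosen after their values were seen. For the other genes of this list under the filter the groups overlapped. Control and triple-deficient means were 0.269 and 0.187 FPKM for Tlr2, and 0.36 and 0.605 FPKM for Ccl12. Cd33, an identity gene under the filter, was lower without overlap, at 0.515 to 0.605 FPKM in controls and 0.208 to 0.354 FPKM in triple-deficient libraries. Tlr2, Ccl12 and Cd33 were also picked with their values known, and none was tested. Itgax, an integrin of activated microglia and likewise chosen afterwards, was at 0.057 to 0.135 FPKM. Apoe, a lipid carrier that Müller glia also make, was at 599 ± 30.5 FPKM in the controls, against 499 ± 55.9 FPKM in triple-deficient libraries (log2 change -0.27, SE 0.086, limma adjusted p = 0.853). Cd68, a lysosomal protein of phagocytes, was at 2.86 ± 0.0866 and 2.28 ± 0.353 FPKM (log2 change -0.24, SE 0.093, limma adjusted p = 0.912). Cst7, a cystatin of activated microglia, was at 0.492 ± 0.345 and 0.740 ± 0.119 FPKM, with wide overlap. Cd9 was at 49.6 ± 2.1 and 52.3 ± 0.693 FPKM, and the lysosomal proteases Ctsd and Ctsb were at 246 ± 7.22 and 71.3 ± 2.01 FPKM in the controls, against 239 ± 5.24 and 71.3 ± 2.87 FPKM in triple-deficient libraries.

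The ligands of these receptors were also measured, and all 11 genes of that list were tested, with a median log2 change of 0.01. Cx3cl1, the fractalkine that Cx3cr1 binds, was at 26.4, 27.2 and 25.3 FPKM in the controls, against 26.0, 25.9 and 23.0 FPKM in triple-deficient libraries. Csf1, a ligand of Csf1r, was at 1.26, 1.32 and 1.21 FPKM in the controls, against 1.34, 1.48 and 1.61 FPKM in triple-deficient libraries, with no overlap. Its log2 change of 0.13 (SE 0.082, interval -0.06 to 0.32) did not pass (limma adjusted p = 0.946). Il34, the other ligand of Csf1r, which neurons make and which is named here after its values were seen, was at 2.39 to 2.96 FPKM in the controls, against 2.44 to 2.75 FPKM in triple-deficient libraries. Tgfb3 was at 9.67 ± 0.568 and 9.18 ± 0.255 FPKM, and Tgfb2, of the same family of growth factors that keeps microglia in their resting state, at 36.1 ± 0.662 and 36.5 ± 1.14 FPKM. Gas6, a bridge between dying cells and the receptors Axl and Mertk, was at 63.2 ± 2.74 and 62.4 ± 4.05 FPKM, and Mfge8, a bridge to integrins, at 252 ± 24.8 and 232 ± 26.4 FPKM.

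Downstream of Tyrobp and related receptors, 9 of 18 signalling genes were tested and 0 were called (median log2 change -0.02). Inpp5d, the phosphatase SHIP1 that restrains phosphoinositide signalling, was at 1.90 ± 0.232 FPKM in the controls, against 2.44 ± 0.0798 FPKM in triple-deficient libraries (log2 change 0.25, SE 0.084, limma adjusted p = 0.861). Ptpn6, the phosphatase SHP-1, was at 0.967 ± 0.0932 and 0.784 ± 0.0864 FPKM. Nckap1l, of the actin machinery of blood cells, was at 1.85 ± 0.186 and 2.07 ± 0.111 FPKM, and Lyn, a kinase of the Src family, at 2.14 ± 0.394 and 1.97 ± 0.403 FPKM. Irf5 was at 3.48 ± 0.759 and 3.54 ± 0.95 FPKM, and Hcls1 at 2.37 ± 0.0516 and 2.33 ± 0.242 FPKM.

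Most of the remaining complement cascade lay under the filter. Of 26 other activation genes, 6 passed the filter and 0 were called. C3, the central component, was at 0.239 to 0.333 FPKM over the 6 libraries. C4b, which is cleaved after C1q binds, was at 0.071 to 0.156 FPKM in the controls, against 0.156 to 0.267 FPKM in triple-deficient libraries. C2 went the other way, with means of 0.375 and 0.293 FPKM. C3, C4b and C2 lay under the filter, were not tested and were named with their values known. C1s1, a protease that C1q activates, was at 0.761 ± 0.2 and 0.542 ± 0.0789 FPKM. Cfp, which codes for properdin of the alternative pathway, was the most abundant, at 14.9 ± 1.05 and 13.9 ± 1.49 FPKM, and Cfb, of the same pathway, was at 0.668 ± 0.0788 and 0.513 ± 0.0467 FPKM. C8g, a subunit of the terminal complex, was at 2.63 ± 0.328 and 3.24 ± 0.288 FPKM (log2 change 0.22, SE 0.093, limma adjusted p = 0.943), and Colec12, a scavenger receptor with a collagen domain, at 2.06 ± 0.0848 and 2.11 ± 0.279 FPKM.

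Complement regulators and their relatives were expressed more broadly, with 20 of 22 tested and 0 called (median log2 change -0.02). Clu, which codes for clusterin, was at 135.5 ± 8.32 and 130 ± 11.1 FPKM, Vtn, which codes for vitronectin, at 80.2 ± 8.07 and 79.7 ± 8.29 FPKM, and Sez6, a neuronal protein with complement control domains, at 77.0 ± 1.90 and 73.7 ± 6.82 FPKM. Cr1l, which codes for the rodent regulator Crry, was at 11.8 ± 1.75 and 10.2 ± 0.911 FPKM. C1ql1 and C1ql2 are neuronal proteins with a C1q domain rather than complement components. C1ql1 was at 71.5, 69.7 and 70.3 FPKM in the controls, against 69.4, 63.9 and 46.8 FPKM in triple-deficient libraries, and C1ql2 at 30.7 ± 2.3 and 24.6 ± 4.88 FPKM (log2 change -0.32, SE 0.129, limma adjusted p = 0.924). Triple-deficient 3 was the lowest library for both, with C1ql2 at 19.4 FPKM there. Of the complement receptors, 5 of 11 passed the filter and 0 were called. Itgam, a subunit of the receptor for cleaved C3, was at 1.07 ± 0.113 and 1.11 ± 0.0824 FPKM, Cr2 at 0.581 ± 0.0744 and 0.776 ± 0.258 FPKM, and Cd93 at 6.97 ± 0.109 and 6.91 ± 0.368 FPKM. Lrp1 was at 19.2 ± 1.11 and 19.1 ± 1.72 FPKM, and Calr, which codes for calreticulin, at 326 ± 52.2 and 323 ± 20.4 FPKM.

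**Figure D5:**
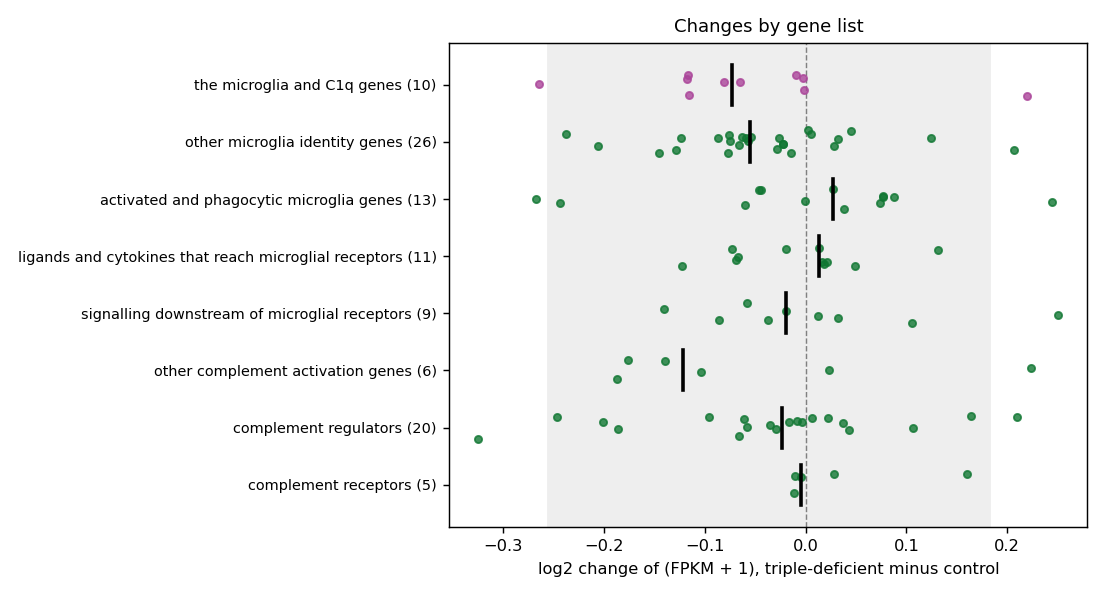
Log2 change of (FPKM + 1), triple-deficient minus control, of each tested gene (points, spread vertically for legibility) in the set of 10 genes (purple) and in 7 wider lists (green), with the number tested in brackets and the median as a black line. The grey band holds the central 95% of the changes of all genes tested, from -0.26 to 0.18, and the medians of the lists lie between -0.12 and 0.03.

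Markers of neurons and of Müller glia stood far above those of immune cells. Cone markers summed to 3487 to 3927 FPKM per library, with Opn1sw, the short-wavelength opsin, at 1510 FPKM on average, and Müller glia markers to 1450 to 1565 FPKM, against 51.9 to 60.2 FPKM for the 10 microglia and C1q genes. Perivascular macrophage and monocyte markers summed to 11.3 to 12.7 FPKM in the controls, against 11.3 to 13.4 FPKM in triple-deficient libraries, led by Lyve1, which lymphatic and other endothelium can also express, at 4.17 FPKM. Within that list, Cd209f was listed at 0 in every library, and Mrc1 was at 0.073 FPKM or less. Cd163 was listed at 0 in all but triple-deficient 2, where it was at 0.01 FPKM. Mrc1 and Cd163 were picked with their values known. Other genes of the list were seen more readily, and these too were picked with their values known. Lyz2, a lysozyme of myeloid cells, was at 3.06 to 3.99 FPKM in the controls, against 3.71 to 4.35 FPKM in triple-deficient libraries. Folr2 was at 1.31 to 1.67 and 1.35 to 1.95 FPKM, and H2-Ab1, a class II antigen presentation gene, at 1.08 to 2.14 and 0.783 to 1.22 FPKM. Cbr2 was listed at 0 in the 3 controls and at 0.062 to 0.165 FPKM in the triple-deficient libraries. Of 18 markers in the list, 13 had a mean under 0.5 FPKM. Neutrophil and lymphocyte markers, 14 of 16 of which had a mean under 0.5 FPKM, summed to 3.48 to 4.02 FPKM in the controls, against 4.54 to 4.99 FPKM in triple-deficient libraries, with Cd8a the highest at 2.38 FPKM, while Elane, Cd3g and Nkg7 were listed at 0 throughout. Cd4 of that list was at 0.7 to 0.844 FPKM in the controls, against 1.085 to 1.273 FPKM in triple-deficient libraries, with no overlap (limma adjusted p = 0.747). Cd8a, with means of 2.22 and 2.53 FPKM and overlapping groups, and Cd4 made up most of the sum in each library. S100a8 was at 0.532 FPKM in triple-deficient 1 and at 0 elsewhere. The T cell gene Cd3d was at 0.098 FPKM or less. S100a8 and Cd3d were picked with their values known. Markers of the pigment epithelium, another tissue that can come with the retina, summed to 24.6 to 37.3 FPKM in the controls, against 16.4 to 23.8 FPKM in triple-deficient libraries. Lens markers were at 17.6 FPKM in control 1 and 3.50 to 4.35 FPKM in the other libraries, and red blood cell markers at 27.8 to 36.6 and 22.4 to 38.8 FPKM in the groups. The part of these other cells in the values of the 10 genes was not tested.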

How the data were processed

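RNA came from 3 control and 3 triple-deficient mouse retina samples at postnatal day 12, extracted with TRIzol and prepared with a stranded mRNA kit, per the labels' protocols. The authors deposited 1 table of FPKM per library, and per the submitters' processing notes the build was mm10 and the tools named are Cufflinks 2.2.1, Cuffdiff, TopHat2 2.1.1 and Bowtie2 2.3.5.1. Neither their settings nor the annotation nor the use of strand is given in the sources used here, so overlapping antisense genes cannot be set apart. FPKM are not counts, and no count model was fitted. The 14325 genes whose mean over all 6 libraries reached 0.5 FPKM were tested with limma 3.58.1 in R 4.3.3 on log2(FPKM + 1), with a mean-variance trend, two-sided, with Benjamini-Hochberg adjustment over all of them. This scale understates changes of low genes. Per the labels the retinas came from 3 pairs of littermates, 1 of each genotype, but nothing says that a library number marks a litter, and the libraries were not paired in the main fit.

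Depth was estimated from the steps between low FPKM (under 0.3), of which 61.1% to 64.1% had ratios to control 1 of whole numbers up to 6 (tolerance 0.005 on the log2 scale), and from 59 genes with 1 transcript of at least 2000 bases in GENCODE M21, which put control 1 at 22.1 to 23.0 M fragments (quartiles). Lengths for fragment estimates are those of the longest transcript paired with a curated RefSeq mRNA. GC content was known for 99.3% of the genes tested. The members, lists and tests were chosen with earlier results of these data known. Named genes are the 10 members, the targeted genes, and from each wider list the 4 with the smallest p and the 3 most abundant, besides genes said to be chosen afterwards and those whose groups did not overlap. Some genes that this rule names are not reported here. Of the fit, 17 alternatives were run.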

Additional observations from a re-analysis of the deposited data

How the results depend on the processing

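Across 17 alternatives (pseudocount, filters, variance model, weights, scaling, GC trend, replicate block and each library left out), 0 of the 10 genes and 0 genes of the wider lists passed limma's threshold. The number called over all genes was 4, and it was 2 with no filter, 2 with robust shrinkage and 3 to 11 when 1 library was left out (7 without control 3, 10 without triple-deficient 1, 11 without triple-deficient 3). The median log2 change of the 10 genes was -0.073, and it ran from -0.095 to -0.016 when 1 library was left out. Changes near 0 turned sign. Csf1r was at 0.001 with quantile normalization, 0 with upper quartile scaling, 0.02 with the GC trend removed, 0.02 with the GC trend removed together with the replicate block, and -0.051 to 0.031 with a library left out. P2ry12 was at 0.003 with array weights, 0.007 with quantile normalization, 0.001 with upper quartile scaling and -0.022 to 0.035 with a library left out. Tyrobp was at 0.015 with the GC trend removed, with or without the replicate block, and at -0.054 to 0.029 with a library left out, and C1qc at -0.218 to 0.012. Changes of the other 6 genes kept their sign in every alternative in which they were tested. The design has 3 pairs of littermates, but the labels do not tie library numbers to litters. Deviations of same-numbered libraries had r of 0.022, 0.114 and 0.067. Those of differently numbered libraries had r from -0.195 to 0.12, which leaves the pairs unknown. The replicate block left 4 genes called and 0 of the 10. At an unadjusted limma p below 0.05 there was 1 of the 10 without control 1, where 539 of all 14325 genes tested passed. There was also 1 of the 10 without control 3, where 750 of 14325 passed, and 0 in the other alternatives. With a filter of 2 FPKM, P2ry12, Aif1 and Tmem119 were not tested. Tmem119, Aif1 and Trem2 rest on 12 to 89 estimated fragments, and what part counting error has in their spread was not tested beyond the comparison of CVs.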
